A study of Mus musculus with 4 samples.

Results

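Ddit4, Chac1 and 8 other genes of the integrated stress response were followed in normal skeletal muscle of the mouse. The 10 genes were Atf4, Ddit3, Trib3, Chac1, Asns, Sesn2, Ddit4, Gadd45a, Gadd45b and Gadd45g, and all 10 were measured, out of 12393 genes in all. Each gene was taken from the probe sets that the platform annotation gives to that gene alone, which made 17 probe sets of 20380. The probe set with the highest mean stood for the gene, and the others served as a check. The genes were put together because of their role and because several of them had a wide spread over these same samples, so their values are given here as a description and without a test.

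The data were 4 arrays of bulk normal muscle from wild type mice of a mixed 129S4/SvJae and C57BL/6 strain, titled skm4, skm5, nm7 and nm8. The series also holds mouse sarcomas, which were not analysed here, and the labels put all 4 muscle samples in 1 group. They name neither the muscle, the age nor whether the samples came from separate animals, and they do not say what the prefixes skm and nm stand for. The prefix may mark a collection or an extraction, and differences are given as skm minus nm (2 samples each). In such whole tissue, a change in the number of cells of a type and a change in the RNA per cell cannot be told apart.

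Values are log2 expression values, on which a difference of 1 is 2-fold. Array medians ran from 7.26 to 7.30, and 0 pairs of arrays were identical. The 12 skeletal muscle markers, such as Acta1, Ckm and Myh4, had medians of 14.33 in skm4, 14.33 in skm5, 14.39 in nm7 and 14.24 in nm8, near the highest value on any array, 14.76. TrpnX controls, which target a bacterial gene, read 3.40 to 4.05, below every value of the 10 genes. Between the prefixes, 4 of 12393 genes (0.0323%) passed limma's test at an adjusted p under 0.05, 3 higher in skm (0.0242%) and 1 lower (0.00807%), and 2918 had an unadjusted p under 0.05.

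In the integrated stress response, kinases that sense amino acid shortage, unfolded protein, haem shortage or viral RNA phosphorylate the translation factor eIF2. General translation falls, while the messenger of the transcription factor ATF4 is translated more, so that much of its control lies outside its own RNA level. ATF4 and its partners then induce genes of amino acid supply, the factor CHOP encoded by Ddit3, and brakes on growth. In muscle, the brakes on the growth kinase complex TORC1, among them the protein REDD1 encoded by Ddit4, also respond to glucocorticoids, hypoxia, fasting and exercise.

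The promoters of 5 genes are shown because they set the genes with the widest spread, Ddit4, Chac1 and Gadd45g, beside Trib3 and Asns. These last 2 are classical ATF4 targets whose values spread less, and Chac1 is a target of ATF4 too. Each runs from 250 bases before to 50 bases after the start of the gene in RefSeq, 5′ to 3′ on the strand of the gene, in build GRCm38.p6. Capitals mark a match to TGATGNAA, the core of the C/EBP-ATF response element to which ATF4 binds, on either strand. The Ddit4 window lies at chr10:59951721-59952020 on the minus strand, Chac1 at chr2:119350992-119351291 on the plus strand, Gadd45g at chr13:51846425-51846724 on the plus strand, Trib3 at chr2:152344011-152344310 on the minus strand and Asns at chr6:7693160-7693459 on the minus strand.
Ddit4: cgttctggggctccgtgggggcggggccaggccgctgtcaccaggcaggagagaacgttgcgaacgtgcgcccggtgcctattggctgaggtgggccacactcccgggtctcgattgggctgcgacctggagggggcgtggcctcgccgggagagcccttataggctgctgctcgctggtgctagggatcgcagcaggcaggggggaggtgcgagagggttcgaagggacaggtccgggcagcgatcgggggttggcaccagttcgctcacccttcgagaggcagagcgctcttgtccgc
Chac1: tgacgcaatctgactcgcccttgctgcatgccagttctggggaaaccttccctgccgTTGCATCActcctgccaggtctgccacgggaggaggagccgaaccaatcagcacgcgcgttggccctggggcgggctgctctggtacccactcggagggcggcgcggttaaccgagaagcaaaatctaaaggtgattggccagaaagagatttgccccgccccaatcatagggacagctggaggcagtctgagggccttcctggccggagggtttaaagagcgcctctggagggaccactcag
Gadd45g: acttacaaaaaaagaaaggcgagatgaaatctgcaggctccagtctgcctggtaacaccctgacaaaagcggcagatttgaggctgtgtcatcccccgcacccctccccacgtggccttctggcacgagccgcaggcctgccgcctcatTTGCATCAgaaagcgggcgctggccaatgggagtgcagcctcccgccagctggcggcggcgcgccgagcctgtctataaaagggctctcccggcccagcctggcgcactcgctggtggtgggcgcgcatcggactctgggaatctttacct
Trib3: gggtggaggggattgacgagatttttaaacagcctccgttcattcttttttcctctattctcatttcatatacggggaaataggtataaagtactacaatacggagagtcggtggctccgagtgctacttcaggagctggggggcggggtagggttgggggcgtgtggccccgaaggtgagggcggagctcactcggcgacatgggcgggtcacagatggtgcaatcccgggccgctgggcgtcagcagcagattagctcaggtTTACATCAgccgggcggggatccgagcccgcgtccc
Asns: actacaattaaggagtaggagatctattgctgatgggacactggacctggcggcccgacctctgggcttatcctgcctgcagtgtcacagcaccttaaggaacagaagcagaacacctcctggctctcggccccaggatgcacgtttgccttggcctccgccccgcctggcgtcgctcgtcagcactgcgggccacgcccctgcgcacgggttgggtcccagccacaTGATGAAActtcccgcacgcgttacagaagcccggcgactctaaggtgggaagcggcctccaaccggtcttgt

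TGATGNAA was found in 4 of the 10 promoters, and 1304 of 32851 promoters in the table (3.97%) held it. The 10 genes were chosen by role and include targets of ATF4, so a larger share among them may follow from that choice. Chac1 had TTGCATCA with its first base at -193 from the start, Gadd45g had TTGCATCA at -101, Asns had TGATGAAA at -23 and Trib3 had TTACATCA at 15. Chac1 and Gadd45g, which had wide spreads, share the same 8 letters, of which the motif fixes all but the base marked N. Trib3 and Asns, with SDs of 0.34 and 0.36, also hold a match. Ddit4, which had the widest spread, has no match in its window. The E-box CACGTG, a palindrome that does not overlap these matches, was found in Gadd45g at -142 and in Gadd45b at -185, and in 7.15% of all promoters. The cyclic AMP response element TGACGTCA was in 0 of the 10 windows and in 1.79% of all promoters. A match is a description of the letters and does not show a bound site.

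Atf4, the bZIP factor at the centre of the response, had the smallest SD of the 10 genes over all 4 samples, though Ddit3 had a smaller one without skm4 (0.05, against 0.14 for Atf4) and Sesn2 without nm8 (0.06, against 0.12). It read 11.68 in skm4, 11.45 in skm5, 11.63 in nm7 and 11.72 in nm8, with an SD of 0.12 (n = 4). The prefixes overlapped, with a difference of -0.11 ± 0.14 (SE) that was -0.23 without skm4, -0.07 without nm8 and 0.01 without skm5, and 76.2% of all genes had a larger SD. The other Atf4 probe sets had differences of -0.19 and -0.14, with SDs of 0.21 and 0.24.

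Ddit3, which encodes CHOP, a factor of prolonged stress, read 8.69 in skm4, 8.34 in skm5, 8.34 in nm7 and 8.26 in nm8. Only skm4 stood above the other 3 samples by more than 0.1, and without it the SD of 0.19 fell to 0.05. The difference was 0.22 ± 0.16, or 0.04 without skm4 and 0.39 without skm5, and the prefixes were separated by less than 0.01 between skm5 and nm7.

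Chac1, an enzyme that breaks down glutathione and a target of ATF4, read 9.43 in skm4, 10.15 in skm5, 7.25 in nm7 and 9.50 in nm8. Sample nm7 stood below the other 3, and nm8 lay between the skm samples, so the prefixes overlapped. The range was 7.45-fold and the SD 1.26, and 0.153% of all genes had a larger SD. The 4.75-fold gap between nm8 and nm7 was larger than the 2.66-fold difference between the prefix means (1.41 ± 0.72). Without nm7 the SD was 0.40 and the difference 0.29, and without nm8 the difference was 2.54.

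Trib3, a pseudokinase that binds AKT and ATF4, read 7.56 in skm4, 7.19 in skm5, 6.74 in nm7 and 7.23 in nm8. It was lowest in nm7, as Chac1 was, but over a range of only 0.83. Its difference was 0.40 ± 0.22, and the prefixes overlapped. The difference was 0.15 without nm7, where the SD was 0.20, 0.64 without nm8 and 0.21 without skm4. The second probe set went the other way, with a difference of -0.24 and its highest value, 6.83, in nm7, so the direction for Trib3 rests on the choice of probe set. With the mean of both, the difference was 0.08 and the SD 0.15, against 0.34.

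Asns, the asparagine synthetase and a classical ATF4 target, did not follow Chac1. It read 8.02 in skm4, 8.32 in skm5, 8.70 in nm7 and 8.80 in nm8, so that both skm samples lay below both nm samples. The difference was -0.58 ± 0.15. Its second probe set also had the skm samples below the nm samples, with 7.46 in skm4, 8.02 in skm5, 8.51 in nm7 and 8.71 in nm8. The Asns difference was -0.73 to -0.43 when each sample was left out in turn.

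**Figure D1:**
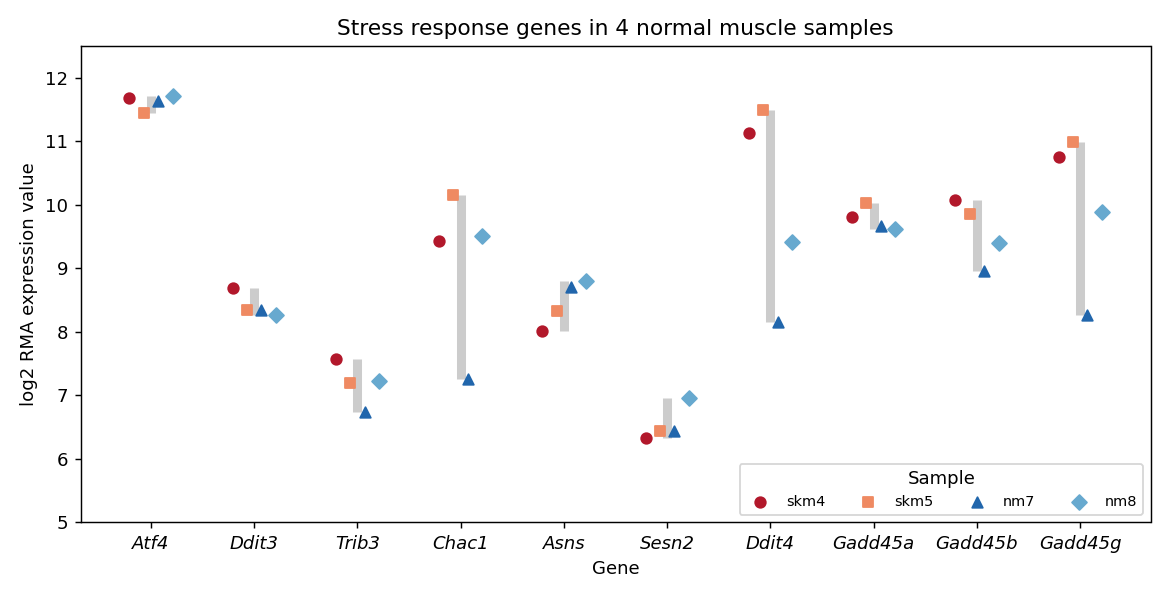
Log2 RMA expression value of each of the 10 genes (x axis) in skm4, skm5, nm7 and nm8 (coloured points), with a grey bar from the lowest to the highest sample. Ddit4, Chac1 and Gadd45g spread over 2.72 to 3.33 units with nm7 at the bottom, while Atf4 spans 0.27; heights compare samples within a gene, not genes with each other.

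Ddit4, which encodes REDD1, an inhibitor of TORC1 acting through TSC1 and TSC2, had the widest spread of the 10 genes. It read 11.13 in skm4, 11.49 in skm5, 8.15 in nm7 and 9.41 in nm8. Both skm samples were above both nm samples, and the nm samples were themselves 2.40-fold apart. The range was 10.1-fold, the SD was 1.55, and 9 genes of 12393 had a larger one. The skm mean was 5.75-fold higher (2.52 ± 0.41), and the difference was 1.89 to 3.15 when each sample was left out in turn. Ddit4 has a single probe set, so no second reading of it was at hand.

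Sesn2, a leucine-binding inhibitor of TORC1 signalling and also a target of ATF4, did not show the pattern of Ddit4. It read 6.33 in skm4, 6.44 in skm5, 6.43 in nm7 and 6.96 in nm8, so that nm8 stood above 3 samples that lay within 0.11 of each other. The difference was -0.31 ± 0.20 with the prefixes overlapping, and without nm8 the SD of 0.28 fell to 0.06 and the difference became -0.05. Without nm7 the difference was -0.57. The second Sesn2 probe set had its highest value in skm4, 6.30, and a difference of 0.08, so the probe sets of Sesn2 disagreed.

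The 3 GADD45 genes encode small stress proteins that bind the kinase MAP3K4, the cell cycle inhibitor p21 and PCNA, and they differed in how far they moved. Gadd45g read 10.76 in skm4, 10.99 in skm5, 8.26 in nm7 and 9.88 in nm8. Both skm samples were above both nm samples, and nm7 was 3.07-fold below nm8. The skm mean was 3.48-fold higher (1.80 ± 0.51), the SD was 1.24, and without nm7 they became a difference of 0.99 and an SD of 0.58.

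Gadd45b followed the same order of prefixes over a narrower range, with 10.08 in skm4, 9.85 in skm5, 8.96 in nm7 and 9.39 in nm8. Its difference was 0.79 ± 0.19 (1.72-fold). Of its other probe sets, 1 had a difference of 0.80 without overlap and 1 a difference of 0.22 with overlap. Gadd45a, the family member best known as a p53 target, read 9.80 in skm4, 10.02 in skm5, 9.66 in nm7 and 9.62 in nm8, with a difference of 0.27 ± 0.13, or 0.16 without skm5, where the SD of 0.18 fell to 0.10. The order of the differences within the family was Gadd45g, Gadd45b and Gadd45a. Within the prefixes, Gadd45g had a difference of -0.23 between skm4 and skm5 and of -1.62 between nm7 and nm8, so the nm samples were the farther apart.

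**Figure D2:**
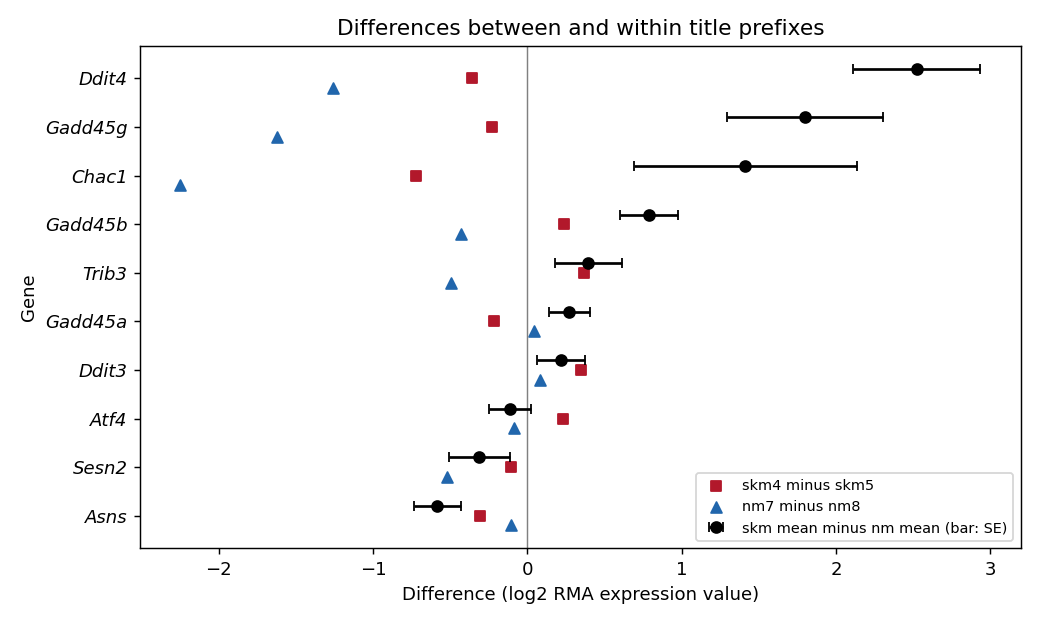
Difference of the skm mean minus the nm mean for each gene (black, bar is the SE of the limma fit, n = 2 per prefix), with the skm4 minus skm5 difference (red squares) and the nm7 minus nm8 difference (blue triangles) on the same log2 axis. The nm7 minus nm8 gap of Chac1, -2.25, is larger in size than its prefix difference of 1.41, while that of Ddit4, -1.26, is smaller than 2.52.

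Over the 10 genes, the median SD was 0.351, against 0.191 over all genes, and 4 of 10 had a range above 1, against 5.98% of all genes. These figures describe a choice that the spread itself helped to make. The skm mean was higher for 7 genes and lower for 3. The prefixes did not overlap for 6 of the 10, against 54.4% of all genes, so that share lay near the background. Of the 6, 5 were higher in skm (25.8% of all genes) and 1 lower (28.6%). Sample nm7 was the lowest for 5 genes, Trib3, Chac1, Ddit4, Gadd45b and Gadd45g, where it was the lowest for 26.5% of all genes.

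**Figure D3:**
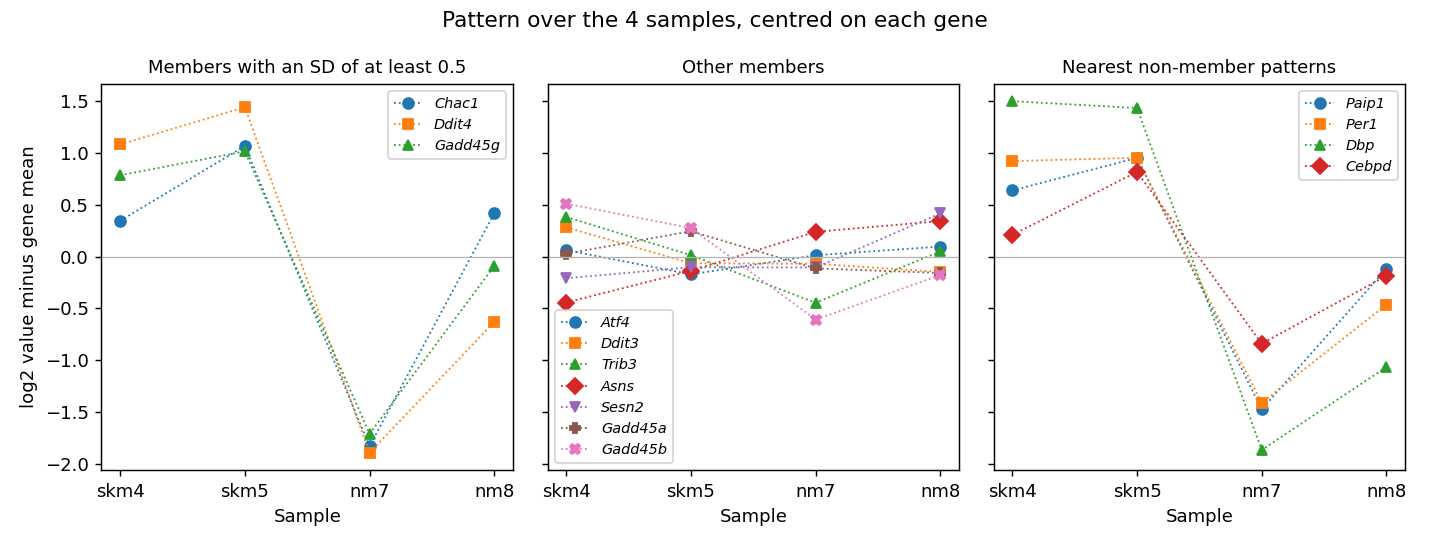
Log2 value minus the mean of the gene in each sample, for the 3 genes with an SD of at least 0.5 (left), the other 7 genes (middle) and 4 genes outside the list with similar patterns (right); dotted lines join the points of a gene and imply no order of the samples. Ddit4, Chac1 and Gadd45g fall to between -1.89 and -1.71 in nm7, and the other 7 genes stay within 0.61 of their means.

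Among genes outside the list with a mean at or above that of the median gene (6189 candidates), the nearest patterns to Ddit4, Chac1 and Gadd45g were sought by the root mean square distance of centred values over the 4 samples. For Ddit4 the nearest was Dbp, a transcription factor driven by the circadian clock, at a distance of 0.30. Dbp read 11.22 in skm4, 11.16 in skm5, 7.86 in nm7 and 8.66 in nm8. Per1, a clock repressor that glucocorticoids also induce, was second for Ddit4 (0.36), Chac1 (0.57) and Gadd45g (0.25). It read 9.92 in skm4, 9.95 in skm5, 7.59 in nm7 and 8.53 in nm8.

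Paip1, a translation factor, was the nearest to Chac1 (0.36) and to Gadd45g (0.14) and was among the 5 nearest to Ddit4 (0.47). These distances rest only on the brighter of its probe sets. The mean of both Paip1 probe sets had an SD of 0.30 and a difference of 0.23, against 1.08 and 1.59 for the brighter one. The rest of the 5 nearest were Slc25a25 and Dysf for Ddit4, Cebpd, Cnbd2 and Zfp385a for Chac1, and Atg101, Cebpd and Nr4a1 for Gadd45g. Cebpd, a bZIP factor of the C/EBP family, lay at 0.60 from Chac1 and 0.53 from Gadd45g. Over 4 samples many genes can have a like pattern, and no relation between the genes follows from it.

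The rest of the pathway was read from 12 lists of genes chosen by role. They held 145 measured genes, of which 0 passed limma's test over all genes in either direction, against 0.0323% of all genes, while 23 higher and 21 lower had an unadjusted p under 0.05 (30.3% in all, against 23.5% of all genes). The count of 0 rested on the settings and was 28 of 116 (24.1%) when genes dimmer than the median gene were left out, where 16.6% of all genes passed. Their median SD was 0.196, against 0.191 over all genes, and the prefixes did not overlap for 93 of them (64.1%, against 54.4%). None of the adjusted p-values below comes under 0.05. The counts at an unadjusted p under 0.05 given below for each list are to be read beside the 23.5% of all genes.

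**Figure D4:**
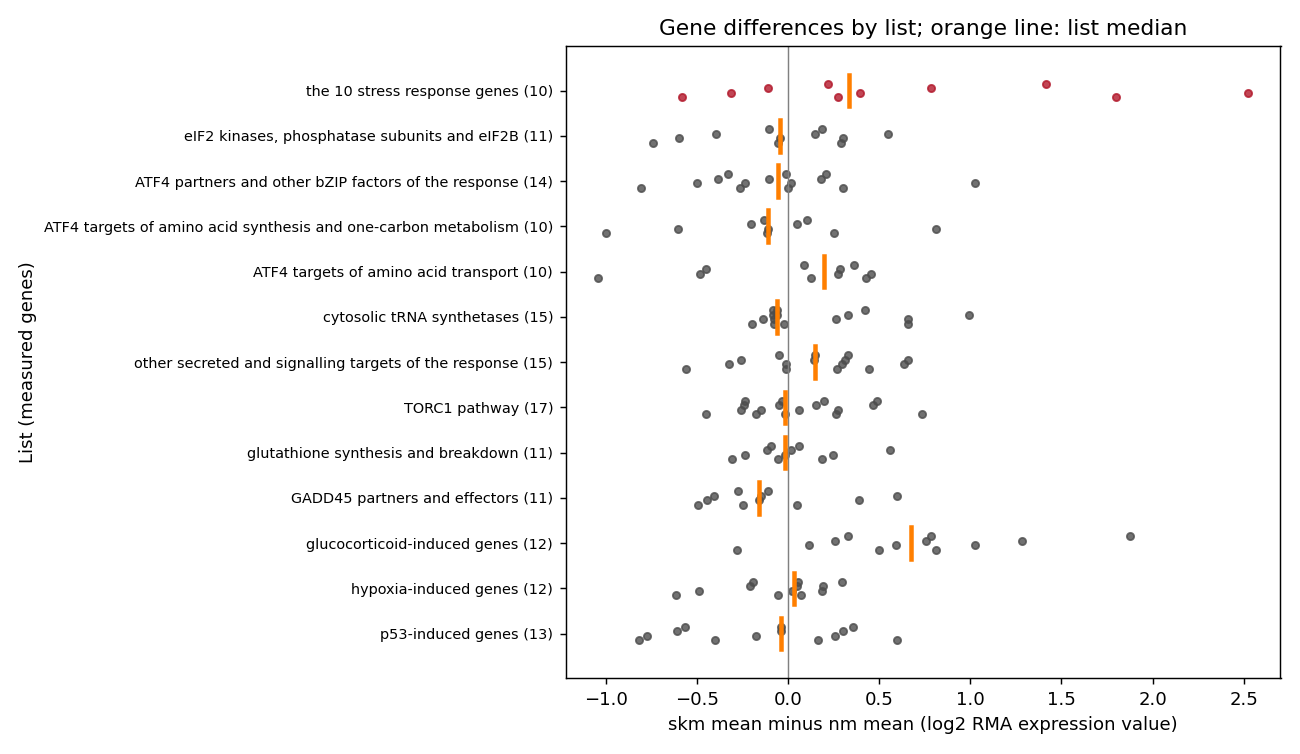
Skm mean minus nm mean on the log2 scale for the 10 genes (red, top) and for the measured genes of 12 pathway lists (grey), with the number of genes in brackets and an orange line at the median of each list. The list medians lie between -0.16 and 0.68, the last for glucocorticoid-induced genes.

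The kinases of eIF2 pointed in both directions. Of 11 measured genes of the kinases, the eIF2 phosphatases and the exchange factor eIF2B, 0 passed, with 1 higher and 3 lower at an unadjusted p under 0.05 and a median difference of -0.05. Eif2ak1, the haem-regulated kinase, differed by 0.55 ± 0.12 (adjusted p = 0.083). Eif2ak3, which encodes the endoplasmic reticulum kinase PERK, differed by -0.60 ± 0.16 (adjusted p = 0.115), and Eif2ak4, which encodes the amino acid sensor GCN2, by -0.39 ± 0.12 (adjusted p = 0.134). Impact, an inhibitor of GCN2, differed by -0.74 ± 0.15 (adjusted p = 0.077).

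Of 14 partners of ATF4 and other bZIP factors, 0 passed, with 1 higher and 3 lower at an unadjusted p under 0.05 and a median of -0.06. Cebpd had 10.63 in skm4, 11.24 in skm5, 9.58 in nm7 and 10.23 in nm8, a difference of 1.03 ± 0.29. The mean of both Cebpd probe sets had a difference of 0.68 and an SD of 0.50, against 0.70. Atf3, a factor induced by ATF4, had 6.78 in skm4, 7.44 in skm5, 8.22 in nm7 and 7.62 in nm8, a difference of -0.81 ± 0.29. Atf3 was thus highest in nm7, the sample in which Chac1, Ddit4 and Gadd45g were lowest.

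Targets of ATF4 in amino acid supply were divided. Of 10 genes of amino acid synthesis and one-carbon metabolism, 0 passed, with 1 higher and 2 lower at an unadjusted p under 0.05 and a median of -0.11. Aldh18a1, an enzyme of proline synthesis, read 7.32 in skm4, 7.66 in skm5, 8.62 in nm7 and 8.37 in nm8 (adjusted p = 0.063). Psat1, of serine synthesis, differed by -0.60 ± 0.23, and both had lower skm values, as Asns did. Got1, an aspartate aminotransferase, differed by 0.81 ± 0.13 (adjusted p = 0.061).

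Of 10 amino acid transporters, 0 passed, with 2 higher and 2 lower at an unadjusted p under 0.05 and a median of 0.20. The glutamine carriers Slc1a5 and Slc38a2 differed by -1.04 ± 0.22 and -0.48 ± 0.12, and the leucine carrier Slc7a5 by -0.45 ± 0.19. The cystine carrier Slc7a11 was at 5.52 in skm4, 5.33 in skm5, 4.78 in nm7 and 5.16 in nm8, dim values among which differences are compressed.

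Of 15 cytosolic tRNA synthetases, 0 passed, and 5 higher and 0 lower had an unadjusted p under 0.05, although the median was -0.06. The largest differences were those of Cars, for cysteine, at 0.99 ± 0.13 (adjusted p = 0.051), Yars, for tyrosine, at 0.66 ± 0.12, Sars, for serine, at 0.66 ± 0.12 and Kars, for lysine, at 0.42 ± 0.12. Of 15 other secreted and signalling targets, 0 passed, with 2 higher and 1 lower at an unadjusted p under 0.05 and a median of 0.15. Sqstm1, the autophagy receptor p62, differed by 0.66 ± 0.12, Trib1, a relative of Trib3, by 0.64 ± 0.15, and Ero1a, an oxidase of the endoplasmic reticulum, by -0.56 ± 0.15.

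In the TORC1 pathway, on which Ddit4 and Sesn2 act, 0 of 17 genes passed, with 3 higher and 1 lower at an unadjusted p under 0.05 and a median of -0.02. Nprl3, a subunit of the GATOR1 complex that restrains TORC1, differed by 0.74 ± 0.12 (adjusted p = 0.061), and Deptor, an inhibitor bound to the kinase, by 0.47 ± 0.13. Sesn3, a relative of Sesn2, differed by -0.45 ± 0.12 and Mlst8, a core subunit, by 0.49 ± 0.13. Tsc1 and Tsc2, the complex through which REDD1 acts, differed by -0.24 ± 0.16 and 0.27 ± 0.12. These last 2, and Chac2 and Map3k4 below, were chosen for their role after the values were seen.

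Around Chac1, 0 of 11 genes of glutathione synthesis and breakdown passed, with 1 higher and 1 lower at an unadjusted p under 0.05 and a median of -0.02. The 2 subunits of glutamate-cysteine ligase lay on opposite sides, Gclm at 0.56 ± 0.14 and Gclc at -0.31 ± 0.11. Chac2, the paralog of Chac1, differed by -0.09 ± 0.17. Around the GADD45 proteins, 0 of 11 partners and effectors passed, with 1 higher and 2 lower at an unadjusted p under 0.05 and a median of -0.16. Cdkn1a, which encodes p21, differed by 0.60 ± 0.26 and Gadd45gip1, which encodes a protein that binds the GADD45 proteins, by -0.50 ± 0.13. Map3k4 differed by 0.05 ± 0.18.

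Lists of genes that respond to other inducers of Ddit4 and the GADD45 genes were read in the same way. Of 12 glucocorticoid-induced genes, 0 passed, 7 higher and 0 lower had an unadjusted p under 0.05, and 11 of 12 differences were positive with a median of 0.68, against -0.003 over all genes. Besides Per1 at 1.88 ± 0.31, Mt2, a metallothionein, differed by 1.29 ± 0.17 (adjusted p = 0.051) and Tsc22d3, the leucine zipper GILZ, by 0.81 ± 0.18 (adjusted p = 0.082). The part of such genes in the values of Ddit4 was not tested. Of 12 hypoxia-induced genes, 0 passed, with 0 higher and 2 lower at an unadjusted p under 0.05 and a median of 0.03, and Pfkfb3 differed by -0.61 ± 0.17 and Vegfa by 0.29 ± 0.26. Of 13 p53-induced genes, 0 passed, with 0 higher and 4 lower at an unadjusted p under 0.05 and a median of -0.04, and Phlda3 differed by -0.82 ± 0.16 and Plk2 by -0.78 ± 0.12.

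Markers of lymphocytes and adipocytes were lower in skm. Most of those of keratinocytes were highest in skm5, though Dsc3 was lowest there and Sfn was not raised. Of 11 lymphocyte markers, 11 were lower in skm without overlap (28.6% of all genes), with median levels of 5.87 in skm4, 7.11 in skm5, 8.08 in nm7 and 8.25 in nm8. Of 9 adipocyte markers, 9 were lower in skm, 7 of them without overlap, with median levels of 11.32 in skm4, 11.53 in skm5, 11.99 in nm7 and 12.56 in nm8. Of 11 keratinocyte markers, 10 had a higher skm mean, and 3 did not overlap, 2 higher and 1 lower in skm, against 54.4% of all genes, with median levels of 5.78 in skm4, 7.74 in skm5, 5.87 in nm7 and 6.13 in nm8. Their part in the values of the 10 genes was not tested. Of the 11 keratinocyte markers, 7 were lowest in nm7, against 26.5% of all genes. The list's median of centred values was -0.34 in skm4, 0.95 in skm5, -0.58 in nm7 and -0.13 in nm8. Centred values of Ddit4, Chac1 and Gadd45g were also lowest in nm7 and highest in skm5. They were 1.08, 0.35 and 0.78 in skm4 and 1.44, 1.07 and 1.02 in skm5. In nm7 they were -1.89, -1.83 and -1.71, and in nm8 -0.63, 0.42 and -0.09.

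The other marker lists differed less in the median between the prefixes. Samples of 1 prefix could still differ, as Schwann cell markers had median levels of 7.79 in skm4 and 9.11 in skm5. Macrophage and neutrophil markers (11 measured) had a median difference of -0.18, tendon markers (7) of 0.23, Schwann cell markers (5) of 0.22, immediate early genes (16) of 0.07 and skeletal muscle markers (12) of 0.01. Most of the skeletal muscle markers lay near the highest value on any array, where differences are compressed. The slow myosin gene Myh7 read 12.83 in skm4, 11.64 in skm5, 12.92 in nm7 and 12.46 in nm8. Its SD was 0.58, against a median SD of 0.07 for that list. In all 8 lists of markers and immediate early genes, 0 genes passed the test over all genes. An unadjusted p under 0.05, which 23.5% of all genes had, was found for 11 of 11 lymphocyte, 6 of 9 adipocyte and 5 of 16 immediate early genes. It was also found for 2 of 11 macrophage and neutrophil, 1 of 11 keratinocyte, 1 of 12 skeletal muscle, 0 of 7 tendon and 0 of 5 Schwann cell genes. Among immediate early genes, Nr4a1, a nuclear receptor, differed by 1.21 ± 0.16 and Egr1, a zinc finger factor, by -1.41 ± 0.26.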

How the data were processed

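Gene expression was measured on 1-colour Affymetrix arrays, 1 per sample. The authors deposited 1 log2 value per probe set and sample. Per the submitters' processing notes, the tools were RMA and Affymetrix Expression Console 1.1. This method removes background, gives all arrays 1 distribution and summarises probes, which compresses differences among dim and very bright values. The sources used here do not give which other arrays were normalized with these 4. The number of arrays limits the precision.

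Of 22690 probe sets, 64 were controls, 20380 had 1 gene in the platform annotation, 691 several and 1555 none. Current symbols came from the GRCm38.p6 gene table by Entrez identifier, and 29 probe sets kept the older symbol. Promoters came from RefSeq and all 10 members matched. No further normalization or filter was applied.

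The skm minus nm difference was fitted over all genes with limma 3.58.1 in R 4.3.3 (lmFit, eBayes, 2-sided, 2 residual degrees of freedom), with Benjamini-Hochberg adjustment and a threshold of 0.05, and the code was tested on simulated data. Errors are standard errors of that fit. They are moderated by eBayes, which draws the variance of each gene toward a value common to all genes (3.51 prior degrees of freedom). For a gene of wide spread, such as Ddit4 or Chac1, the printed error is thus smaller than its own samples alone would give. As no label names separate animals, p-values reflect a spread among samples that may be technical. The members and the 20 gene lists (233 of 267 entries measured) were chosen with earlier results of these data known. Named were all members, genes past the threshold or up to 4 of each list with the largest differences, and the 5 nearest patterns. Alternatives were other normalizations, probe set choices, filters and thresholds, and each sample left out in turn.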

Additional observations from a re-analysis of the deposited data

Results flagged for a closer look

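A single sample stood far from the other 3, by Dixon's ratio of the gap to the whole range, in 4 of 105 series of values tested. Chance gives about 1 in 20 for series that were not selected. Many of these were chosen by the size of their differences or by their patterns, so that rate need not hold here. Sesn2 in nm8 had a ratio of 0.83, just past the critical value, and its second probe set did not single out nm8. A dimmer probe set of Atf4 in nm7 had a ratio of 0.896, with 9.49 in nm7 and 9.04 to 9.09 in the other samples, and the brightest Atf4 probe set did not single out nm7. Among marker genes, Dsp, a keratinocyte gene, was highest in skm5 with a ratio of 0.915, and Comp, a tendon gene, was lowest in nm8 with 0.859. The low nm7 values of Ddit4, Chac1 and Gadd45g did not reach the critical value.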

How the results depend on the processing

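The spread of the 10 genes, as their median SD over that of all genes, was 1.83 and stayed within 1.5 times that value under every alternative run, at 1.69 to 2.29 when each sample was left out. The number of genes past the test was 4 and depended on the settings. It was 186 with quantile normalization, 92 with the mean of all probe sets, 142 without probe sets marked _x_at or _s_at, 1026 without genes dimmer than the median gene, 1110 with an intensity trend in eBayes, 995 at an adjusted p of 0.10, and 0 to 15 when each sample was left out (15 without skm5, 0 without skm4, nm7 or nm8). Of the 145 pathway genes, 0 passed, and in the same order of settings 5, 1, 3, 28 (of 116), 26 and 18 did, with 0 whichever sample was left out. These counts are out of 12393 genes and 145 pathway genes, except 12106 and 144 without the marked probe sets and 6197 and 116 with the filter. With the filter, 24.1% of the pathway genes passed, against 16.6% of all genes. The filter tests fewer genes, and otherwise the cause was not tested. Of the members' differences under the alternatives, 16 of 88 moved by over 1.5 times, 14 by leaving out a sample and 2, those of Trib3 (0.08) and Sesn2 (-0.12), with the mean of all probe sets, and that of Atf4 changed sign without skm5. Of the members' SDs, 8 of 88 moved by over 1.5 times, all by leaving out a sample except that of Trib3 with the mean of its probe sets. No paired analysis was possible because the labels give the samples 1 group and no shared replicate numbers. Signal over background limits dim genes such as Sesn2, Eif2ak4 and Slc7a11.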
